A study of Mus musculus with 4 samples.

Results

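The genes described here encode receptors, bridging proteins and engulfment machinery by which phagocytes recognise and take up apoptotic cells. They are 10 named genes, Mertk, Axl, Tyro3, Gas6, Pros1, Stab1, Mfge8, Elmo1, Dock1 and Adgrb1, and all 10 were matched among the 29247 gene IDs of the count table. RNA sequencing was done on macrophages that had been flow sorted from the livers of C57BL6J mice aged 8 weeks. The 3 libraries of the APAP group hold Cxcr4+ macrophages taken 72 h after a 300 mg/kg intraperitoneal dose of acetaminophen (APAP), which in excess is toxic to hepatocytes, and the reference is 1 library of control macrophages. The gate used for the control is not given in the labels, so APAP and the Cxcr4 sort cannot be told apart. Nothing in the labels says that the APAP libraries came from separate mice, so p-values measure only the spread between these libraries, which may be technical.

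Dying cells expose phosphatidylserine on their surface. The TAM receptors (Tyro3, Axl and Mertk) are receptor tyrosine kinases that do not bind this lipid themselves but through the soluble bridges Gas6 and protein S (Pros1). Stabilin 1 (Stab1) and the brain angiogenesis inhibitor Adgrb1 bind phosphatidylserine directly, Mfge8 links it to integrins, and Elmo1 with Dock1 passes the signal to the GTPase Rac, which drives engulfment. In liver, Kupffer cells, the resident macrophages, clear dead cells through this machinery, and recruited monocytes do so after injury.

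Total counts ran from 48282283 to 56702837 in the APAP Cxcr4+ libraries, against 49950909 in control cells. Levels are given in CPM, counts relative to library size, after scaling by trimmed mean of M-values (TMM); the scaling factors ran from 1.03 to 1.04 for the APAP libraries, against 0.90 for the control. Of the 12 Kupffer cell markers, 10 fell and 0 rose. After either correction for gene length 8 fell, and fewer than 10 were called without the second APAP library. Their summed level was 14506 to 18160 CPM in the APAP Cxcr4+ libraries, against 36868 CPM in control cells, where Clec4f was the highest. Of the 10 recruited monocyte markers, 8 rose and 1 fell, with a sum of 735.7 to 912.8 CPM in the APAP Cxcr4+ libraries, against 225 CPM in control cells. The marker that fell, Plac8, made up most of the control sum, at 39.4 to 51.0 CPM in the APAP Cxcr4+ libraries, against 147.6 CPM in control cells. Clec4f, Timd4 and Vsig4, which define Kupffer cells, were well above 0 in every library. Lymphocyte markers were also present: 11 of 11 B cell, 7 of 10 T cell and 6 of 9 NK cell genes rose, and their sums were 430.1 to 648.6, 140.8 to 189.7 and 44.9 to 75.6 CPM in the APAP libraries, against 72.9, 82.5 and 18.1 CPM in the control. Without the second APAP library, or with limma-voom, 3 NK cell genes rose. T cell genes called higher were also fewer without the second APAP library. In such bulk samples, fewer cells of a type and less RNA per cell cannot be told apart. These marker levels moved with the differences between the groups given here, and their part in them was not tested.

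The stretches of 250 bases before the start sites of the 5 genes that rose are shown because these genes moved in the same direction. Sequences are from RefSeq on build GRCm38.p6, which is not the build of the counts (mm39), and run 5′ to 3′ on the gene's strand; 9 of the 10 genes had a window. For Mertk, Gas6, Axl and Elmo1, the bases checked after the start site were not found in the gene's GENCODE M21 transcripts. Their start sites, and positions counted from them, are therefore less certain. Capitals mark a GC box (GGGCGG, a site of Sp-family factors) or a Maf half-site (TGCTGA), on either strand, and neighbouring GC boxes can overlap.
Stab1, chr14:31168642-31168891, minus strand: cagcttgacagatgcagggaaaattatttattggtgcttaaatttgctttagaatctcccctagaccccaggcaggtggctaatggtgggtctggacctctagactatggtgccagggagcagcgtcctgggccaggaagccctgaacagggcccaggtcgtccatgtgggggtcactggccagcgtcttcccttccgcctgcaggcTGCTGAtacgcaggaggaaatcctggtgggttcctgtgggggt
Mfge8, chr7:79149061-79149310, minus strand: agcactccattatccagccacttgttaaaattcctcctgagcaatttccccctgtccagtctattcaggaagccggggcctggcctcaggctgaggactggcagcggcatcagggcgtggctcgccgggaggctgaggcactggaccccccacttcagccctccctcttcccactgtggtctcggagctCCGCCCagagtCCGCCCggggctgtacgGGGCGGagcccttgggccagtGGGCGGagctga
Gas6, chr8:13494536-13494785, minus strand: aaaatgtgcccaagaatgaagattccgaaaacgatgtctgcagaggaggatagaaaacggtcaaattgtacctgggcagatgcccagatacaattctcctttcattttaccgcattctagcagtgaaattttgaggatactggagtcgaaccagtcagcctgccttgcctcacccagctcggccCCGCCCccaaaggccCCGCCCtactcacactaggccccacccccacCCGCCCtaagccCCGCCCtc
Mertk, chr2:128698665-128698914, plus strand: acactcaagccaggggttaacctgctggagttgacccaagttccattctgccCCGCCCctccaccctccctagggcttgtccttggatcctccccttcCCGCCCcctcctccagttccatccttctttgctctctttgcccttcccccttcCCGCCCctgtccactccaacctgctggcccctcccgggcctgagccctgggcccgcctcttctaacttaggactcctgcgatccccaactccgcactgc
Dock1, chr7:134670437-134670686, plus strand: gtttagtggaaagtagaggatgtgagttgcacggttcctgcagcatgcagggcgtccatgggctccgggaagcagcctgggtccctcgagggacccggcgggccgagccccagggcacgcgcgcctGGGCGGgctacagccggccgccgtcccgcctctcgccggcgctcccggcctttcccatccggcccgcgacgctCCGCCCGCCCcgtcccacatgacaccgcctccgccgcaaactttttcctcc
Mfge8 and Gas6 each hold 4 GC boxes, and Mertk and Dock1 each hold 3. Stab1 has none and has a single Maf half-site, 43 bases before the start. Among all 32851 windows of this length, 32.7% hold a GC box and 16.1% a Maf half-site. GC boxes also occur before the genes that were not called: 3 for Tyro3, 1 for Axl, 5 for Pros1 and 3 at the first of the 2 Elmo1 starts. No member window holds the PU.1 motif GAGGAAGT, the AP-1 motif TGANTCA or the nuclear receptor half-site AGGTCA, found in 2.44%, 6.75% and 14% of all windows on either strand.

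Stab1, Mfge8, Gas6, Mertk and Dock1 rose in APAP Cxcr4+ macrophages, and no member of the group fell. Stab1 and Mfge8 had the largest fold changes of the group, at 4.53 and 4.49 times the control level, followed by Gas6 at 1.78, Mertk at 1.47 and Dock1 at 1.40. Axl, Pros1, Elmo1 and Tyro3 did not pass the test, and Adgrb1 was too low to be tested. The count of 5 of 9 tested genes higher stands beside 25.4% of all 18715 tested genes higher and 18.9% lower, 44.3% in all, by the same rule (edgeR quasi-likelihood test, Benjamini-Hochberg adjusted p at or below 0.05). The median log2 fold change was 0.48 over the 9 members and 0.08 over all genes tested. The members' median turned to -0.088 after the correction for exon length and to -0.083 after that by the longest coding transcript, with -0.042 and 0.057 over all genes. The control lay below all 3 APAP libraries for 5 members, above them for 2 and between them for 2, while over all tested genes it lay below for 45.7% and above for 39.2%, 84.8% in all. The count was 3 without the second APAP library, where 27.3% of all genes were called, and 6 without the first, where 50.8% were called and Pros1 joined as lower. In a test against a 2-fold change, which called 7.37% of all genes, 2 members passed. After the correction for exon length 3 members rose and 3 fell, with 38.1% of all genes called, and those that rose were Stab1, Mfge8 and Gas6, those that fell Axl, Pros1 and Elmo1.

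**Figure D1:**
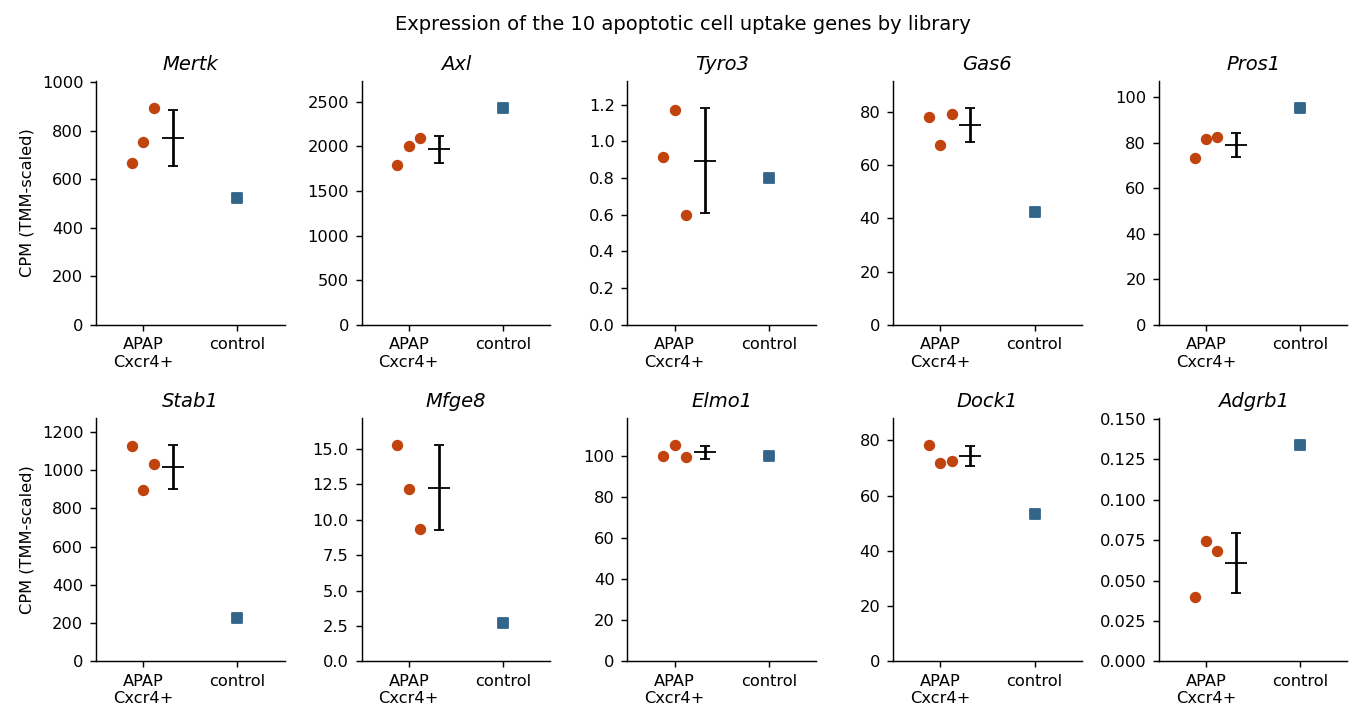
Level of each of the 10 genes in CPM (vertical axes, linear from 0) in the 3 APAP Cxcr4+ libraries (circles, with mean and SD beside them) and the 1 control library (square). Stab1 lies at 895.9 to 1125 CPM in the APAP Cxcr4+ libraries, against 224.6 CPM in control cells, whereas the Elmo1 points of both groups lie near 100.1 CPM.

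Per kilobase of annotated exon, Axl was the most abundant of the 10 genes, at 390.4 ± 30.7 CPM per kb in the APAP libraries (SD, n = 3) and 482.7 CPM per kb in the control. Mertk came next at 177.6 ± 26.4 CPM per kb in the APAP libraries and 120.6 CPM per kb in the control. These levels put Axl above 99.4% or more of tested genes in every library, and Mertk above 98.7% to 99.1% in the APAP Cxcr4+ libraries, against 97.4% in control cells. In the APAP libraries the order went on with Stab1 (98.9 ± 11.2), Gas6 (29.5 ± 2.50), Pros1 (19.3 ± 1.27), Elmo1 (8.08 ± 0.255), Dock1 (7.97 ± 0.38), Mfge8 (2.62 ± 0.636), Tyro3 (0.144 ± 0.0465) and Adgrb1 (0.00842 ± 0.00256 CPM per kb). The ranges of neighbours in this order were apart except for Elmo1 and Dock1. In the control, Pros1 at 23.3 CPM per kb stood above Stab1 at 21.8 and Gas6 at 16.6 CPM per kb. When divided by the longest coding transcript instead, the APAP order was the same and the ranges of Elmo1 and Dock1 were apart, at 18.6 ± 0.586 and 10.9 ± 0.521 CPM per kb.

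**Figure D2:**
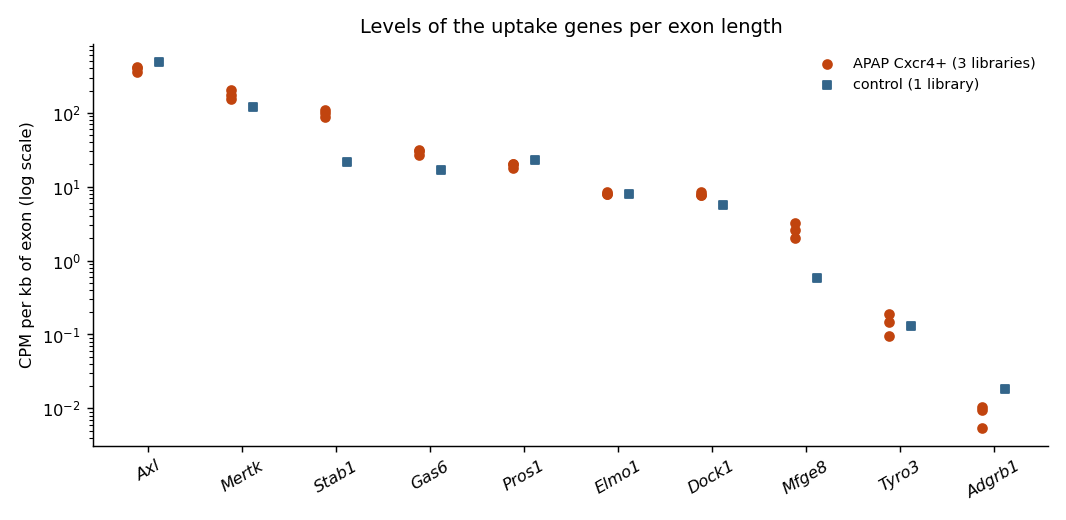
Level per kilobase of annotated exon (vertical axis, CPM per kb, log scale) for the 10 genes, ordered by their mean in the 3 APAP Cxcr4+ libraries (circles), with the 1 control library beside them (squares). Axl and Mertk lead in both groups, and Stab1 comes next in the APAP libraries at 98.9 CPM per kb but is below Pros1 in the control at 21.8 CPM per kb.

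Among the TAM receptors, Mertk rose and Axl did not pass the test. Mertk (ENSMUSG00000014361, chromosome 2) is the receptor through which macrophages take up apoptotic cells under steady conditions and at the end of inflammation. It stood at 665.5, 752.2 and 892.3 CPM in the APAP Cxcr4+ libraries, against 522.8 CPM in control cells. All APAP libraries were above the control, and the third was the highest. On the log2 scale the fold change was 0.56 (SE 0.18, 95% interval 0.12 to 1.0, adjusted p = 0.0492 by edgeR), close to the threshold. The call was lost without the second APAP library (adjusted p = 0.122), with upper-quartile factors (0.059), with a filter of 5 CPM (0.054) and after corrections for gene length (0.105 and 0.194). The log2 fold change stayed positive in each of these, between 0.33 and 0.58.

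Axl (ENSMUSG00000002602, chromosome 7), a TAM receptor known for its induction in inflamed tissue and for binding Gas6, stood at 1794, 2008 and 2094 CPM in the APAP Cxcr4+ libraries, against 2429 CPM in control cells. The control was the highest library, above all 3 APAP libraries. edgeR put the log2 fold change at -0.31 (SE 0.13, 95% interval -0.63 to 0.02, adjusted p = 0.108). Axl passed as lower after each correction for gene length (log2 fold change -0.52 and -0.53, adjusted p = 0.0273 and 0.03). With library totals and no TMM factors it was -0.10 (adjusted p = 0.539).

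Tyro3 (ENSMUSG00000027298, chromosome 2), the TAM receptor best known from the nervous system, had 46, 63 and 35 counts in the APAP Cxcr4+ libraries, against 36 in control cells. These are 0.915, 1.17 and 0.597 CPM in the APAP Cxcr4+ libraries, against 0.801 CPM in control cells, which lay within their range. Its log2 fold change was 0.16 with a wide 95% interval of -1.04 to 1.36 (adjusted p = 0.81 by edgeR), and changes within that interval were not detectable at this depth. The direction turned without the second APAP library (-0.087) and after the corrections for length (-0.18 and -0.10).

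Axl was the larger part of TAM receptor transcripts in every library, and the share of Mertk was higher in the APAP Cxcr4+ libraries than in the control. Mertk made up 30.1%, 30.3% and 33.1% of the summed TAM receptor level per kb in the APAP Cxcr4+ libraries, against 20% in control cells. Axl made up 69.9%, 69.7% and 66.9% in the APAP Cxcr4+ libraries, against 80% in control cells, and Tyro3 at most 0.033% in any library. The ratio of Axl to Mertk was 2.32, 2.30 and 2.02 in the APAP Cxcr4+ libraries, against 4.0 in control cells, with the control outside the APAP range. Such a ratio does not depend on library scaling. Its change on the log2 scale, Axl minus Mertk, was -0.86. It was -0.95 to -0.79 without single APAP libraries or after the corrections for gene length. With a single control library the ratio itself has no test.

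Of the 2 TAM ligands, Gas6 rose and Pros1 did not pass the test. Gas6 (ENSMUSG00000031451, chromosome 8), a vitamin K-dependent protein that activates all TAM receptors, stood at 78.1, 67.7 and 79.4 CPM in the APAP Cxcr4+ libraries, against 42.3 CPM in control cells. The groups did not overlap. On the log2 scale the fold change was 0.83 (SE 0.13, 95% interval 0.52 to 1.14, adjusted p = 0.00484 by edgeR), and the call was kept without any single APAP library and after the corrections for length, at 0.96 and 0.95.

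Pros1 (ENSMUSG00000022912, chromosome 16) encodes protein S, an anticoagulant of plasma that also bridges apoptotic cells to Mertk and Tyro3. It stood at 73.0, 81.7 and 82.3 CPM in the APAP Cxcr4+ libraries, against 95.1 CPM in control cells, which was above all of them. edgeR put the log2 fold change at -0.27 (SE 0.10, 95% interval -0.52 to -0.01, adjusted p = 0.0837). It passed as lower without the first APAP library (-0.21, adjusted p = 0.0419) and after the correction for exon length (-0.36, adjusted p = 0.0404), and was -0.06 with library totals alone (adjusted p = 0.634). Hepatocytes are a main source of plasma protein S. Of the 18 hepatocyte markers, Alb, Apoa1 and Apoa2 among them, 15 fell and 0 rose, and none was at 0 in any library. Their sum was 1532 to 2431 CPM in the APAP Cxcr4+ libraries, against 3868 CPM in control cells. Trf made up most of it, at 1109 to 1877 CPM in the APAP Cxcr4+ libraries, against 2679.5 CPM in control cells. Alb stood at 176.8 to 269.3 CPM after APAP, against 491.6 CPM in control cells. The part of these markers in the Pros1 level was not tested. After the correction by the longest coding transcript 8 hepatocyte markers fell.

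Gas6 was the less abundant ligand in the control and the more abundant ligand in every APAP library. Per kb, it made up 63.2%, 57.1% and 60.7% of Gas6 plus Pros1 in the APAP Cxcr4+ libraries, against 41.6% in control cells. Divided by the longest coding transcript, the shares were 58.1%, 51.8% and 55.6% in the APAP Cxcr4+ libraries, against 36.5% in control cells. The log2 change of the ratio of Gas6 to Pros1 was 1.10. It was 1.01 to 1.32 without single APAP libraries or after the corrections for gene length. Settings that change only library scaling or the count filter cannot move such a ratio.

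**Figure D3:**
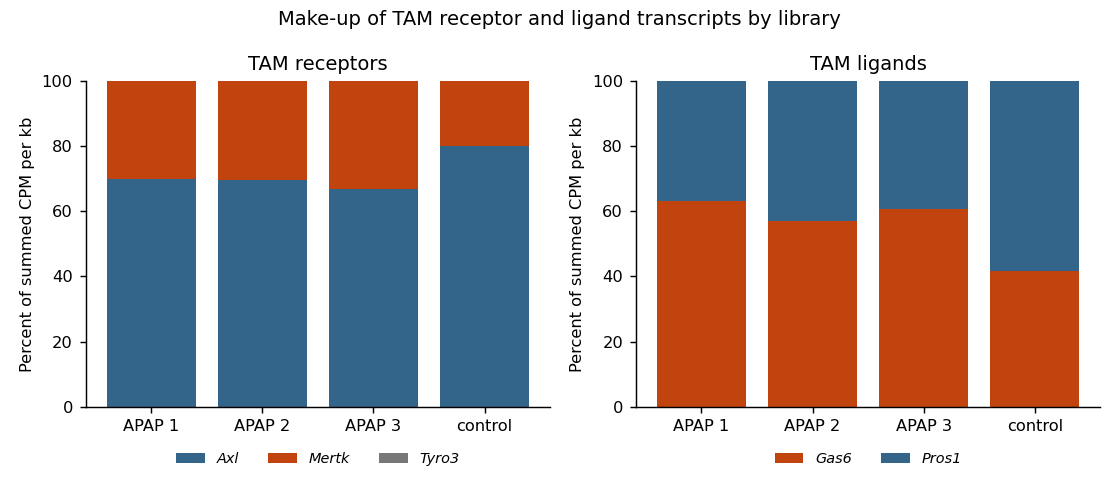
Share of each TAM receptor (left) and TAM ligand (right) in percent of their summed CPM per kb (vertical axes) in each of the 3 APAP Cxcr4+ libraries and the control. Mertk is 30.1% to 33.1% of the receptors in the APAP Cxcr4+ libraries, against 20% in control cells, Gas6 is 57.1% to 63.2% of the ligands in the APAP Cxcr4+ libraries, against 41.6% in control cells, and Tyro3 is too small to be seen.

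Stab1 (ENSMUSG00000042286, chromosome 14), a large scavenger and phosphatidylserine receptor of tissue macrophages and sinusoidal endothelium, rose. It stood at 1125, 895.9 and 1030 CPM in the APAP Cxcr4+ libraries, against 224.6 CPM in control cells. Each APAP library was far above the control, and the spread between them was small beside that gap (SD 115 CPM, n = 3). Its log2 fold change was 2.18 (SE 0.17, 95% interval 1.76 to 2.60, adjusted p = 0.00112 by edgeR), and 12.7% of all tested genes had a log2 fold change at least as high. It also passed the test against a 2-fold change (adjusted p = 0.00659). After the corrections for gene length the value was 1.55 and 1.49, about 1.5 times smaller as a fold, and still called (adjusted p = 0.00278 and 0.00367). The exons of Stab1 share 112 of 10288 bases with Nt5dc2 on the opposite strand, which had 2010 to 2398 counts in the APAP Cxcr4+ libraries, against 1330 in control cells, and the strand setting of the counting is not given in the sources used here.

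Because sinusoidal endothelial cells also express Stab1, their markers are given beside it. Of 18 such markers, 3 rose and 6 fell, and 1 rose and 8 fell after either correction for length; without the second APAP library 3 rose and 3 fell. None was at 0 in any library. Their summed level was 1308 to 1726 CPM in the APAP Cxcr4+ libraries, against 2326 CPM in control cells, and their part in the Stab1 level was not tested. Cdh5, which is also on the Kupffer cell list, made up the largest share of the control sum. Pecam1 stood at 48.7 to 69.0 CPM in the APAP Cxcr4+ libraries, against 127.8 CPM in control cells, Cdh5 at 473.5 to 747.5 CPM after APAP, against 1268 CPM in control cells, and Kdr at 40.1 to 46.7 CPM after APAP, against 32.2 CPM in control cells. The related scavenger receptor Stab2, looked at after its values were seen, stood at 264, 325.2 and 365.4 CPM in the APAP Cxcr4+ libraries, against 406.9 CPM in control cells.

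Mfge8 (ENSMUSG00000030605, chromosome 7), a secreted protein that binds phosphatidylserine and macrophage integrins, stood at 15.3, 12.2 and 9.35 CPM in the APAP Cxcr4+ libraries, against 2.74 CPM in control cells. The control level rests on 123 counts (95% Poisson interval 102 to 147, for counting error only). The groups did not overlap, although Mfge8 varied more between APAP libraries than the other genes that rose (coefficient of variation 24.3%, against 4.77% to 14.9%). On the log2 scale the fold change was 2.17 (SE 0.33, 95% interval 1.35 to 2.99, adjusted p = 0.00496 by edgeR), 1.98 to 2.35 without single APAP libraries and 1.99 and 2.40 after the corrections for length. Conventional dendritic cells are another source of Mfge8. Of their 8 markers 7 rose and 1 fell, none was at 0 in any library, and their sum was 90.6, 108.5 and 122.8 CPM in the APAP Cxcr4+ libraries, against 76.8 CPM in control cells; their part in the Mfge8 level was not tested. Batf3, singled out after its values were seen, was the marker that fell and made up most of the control sum, at 21.1, 23.3 and 26.4 CPM after APAP, against 57.3 CPM in control cells. Flt3, also on this list, stood at 13.3, 17.6 and 21.4 CPM after APAP, against 1.69 CPM in control cells. Zbtb46 stood at 5.83, 7.46 and 8.14 CPM after APAP, against 2.65 CPM in control cells.

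Adgrb1 (ENSMUSG00000034730, chromosome 15), a phosphatidylserine receptor that signals through Elmo1 and Dock1, had 2, 4 and 4 counts in the APAP Cxcr4+ libraries, against 6 in control cells. With so few counts it did not pass the count filter, and no change was detectable at this depth. The 6 control counts have a 95% Poisson interval of 2.20 to 13.1 counts.

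The engulfment adaptor Elmo1 (ENSMUSG00000041112, chromosome 13) stood at 100.1, 105.3 and 99.5 CPM in the APAP Cxcr4+ libraries, against 99.8 CPM in control cells, which lay within their range. edgeR put the log2 fold change at 0.03 with a 95% interval of -0.19 to 0.25 (adjusted p = 0.819). Elmo1 has the longest exon union of the group (12580 bases, and 5464 in its longest coding transcript), and its direction turned after the corrections for length, to -0.72 and -0.38 (adjusted p = 0.00357 and 0.0244).

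Its partner Dock1 (ENSMUSG00000058325, chromosome 7), the exchange factor that activates Rac, stood at 78.4, 71.9 and 72.7 CPM in the APAP Cxcr4+ libraries, against 53.2 CPM in control cells. All APAP libraries were above the control. Its log2 fold change was 0.48 (SE 0.10, 95% interval 0.24 to 0.73, adjusted p = 0.0122 by edgeR). The call was lost without the second APAP library (0.51, adjusted p = 0.0513), and the direction turned after the corrections for length (-0.09 and -0.08, adjusted p = 0.49 and 0.526). The ratio of Elmo1 to Dock1 per kb was 0.947, 1.09 and 1.01 in the APAP Cxcr4+ libraries, against 1.39 in control cells.

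**Figure D4:**
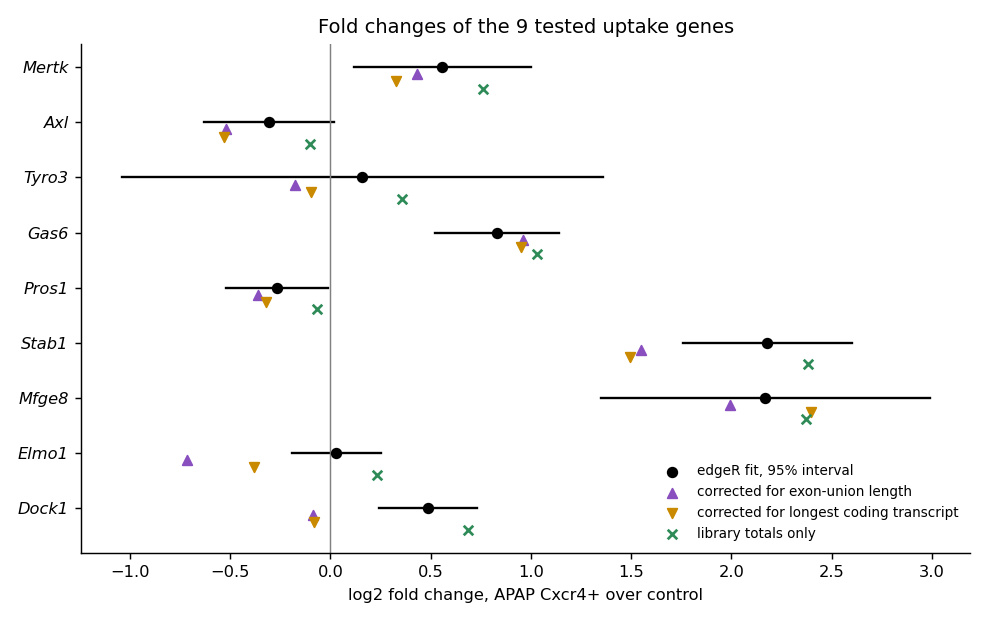
Log2 fold change of APAP Cxcr4+ over control (horizontal axis) for the 9 tested genes, with the edgeR value and its 95% interval (black), the values after each correction for gene length (triangles) and with library totals alone (crosses). Stab1, Mfge8 and Gas6 lie well right of 0 under all of them, while Dock1 moves from 0.48 to -0.09 and -0.08 and Elmo1 from 0.03 to -0.72 and -0.38 with the corrections for length.

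The effect of length on single genes stands against a trend over the whole table. Across 14028 tested genes with a coding transcript, which are not independent replicates, Spearman's rho between log2 fold change and the length of the longest coding transcript was 0.408. With exon length, over 18644 genes, it was 0.223. The long genes Stab1, Dock1 and Elmo1 moved most under the corrections, and Gas6, with the shortest exon union of the group (2548 bases), had a slightly larger value. Whether this trend is technical was not tested.

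Stellate cells and fibroblasts, which also express Gas6 and Axl, showed no common direction. Of their 14 markers 4 rose and 6 fell, and their sum was 228.2 to 251.2 CPM in the APAP Cxcr4+ libraries, against 290.3 CPM in control cells. The lower sum after APAP rests on Ecm1, at 128.0 to 146.9 CPM in the APAP Cxcr4+ libraries, against 211.1 CPM in control cells. Lrat, the retinol-storing enzyme of stellate cells, stood at 2.76 to 2.90 CPM in the APAP Cxcr4+ libraries, against 8.86 CPM in control cells, whereas Col1a1 stood at 6.91 to 8.16 CPM after APAP, against 0.801 CPM in control cells. None of the 14 was at 0 in any library, and their part in the Gas6 level was not tested.

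The wider clearance pathway was described by 8 further lists, with 158 distinct genes tested. Of these, 52 rose and 41 fell, beside 25.4% and 18.9% of all genes tested. After the correction for exon length 33 rose and 59 fell.

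Among 23 other tested receptors of apoptotic cells, 12 rose and 5 fell. Their median log2 fold change was 0.97, but 0.09 with the filter of 5 CPM and 0.32 and 0.11 after the corrections for exon length and by the longest coding transcript. Cd93, a surface glycoprotein linked to apoptotic cell removal in mice, rose by 5.92 (SE 0.31), the lipid-binding receptor gene Trem2 rose by 2.34 (SE 0.13), the integrin chain Itgav, which binds Mfge8, by 1.24 (SE 0.11) and the phosphatidylserine receptor Cd300lb by 1.06 (SE 0.09), with adjusted p between 0.000841 and 0.00124. Itgav stood at 317.8, 323.2 and 295 CPM in the APAP Cxcr4+ libraries, against 131.7 CPM in control cells, and its log2 fold change was 0.59 after the correction for exon length. The Kupffer cell phosphatidylserine receptor Timd4 fell by 1.70 (SE 0.16, adjusted p = 0.00155), at 242, 307.9 and 323.9 CPM in the APAP Cxcr4+ libraries, against 945.1 CPM in control cells. Havcr1 and Olr1 had 0 counts in the control and were at least 16.4-fold and at least 9.36-fold higher, taking 3 counts as the most that the control could hide. The number that fell was 3 without the second APAP library or with library totals alone, and 8 after the correction for exon length.

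The other bridging and opsonin genes went mainly down: 3 of 16 rose and 8 fell (median -0.80). The complement chains C1qa and C1qb, which tag apoptotic cells, fell by 2.18 (SE 0.21) and 1.67 (SE 0.16) on the log2 scale, C1qa standing at 1599, 2236 and 2325 CPM in the APAP Cxcr4+ libraries, against 9293 CPM in control cells. Thrombospondin 1 (Thbs1), a bridge to Cd36 and integrins, rose by 4.88 (SE 0.50), at 68.4, 43.2 and 36.1 CPM in the APAP Cxcr4+ libraries, against 1.67 CPM in control cells. The scavenger collectin Colec12 rose by 1.81 (SE 0.13). All 4 had adjusted p between 0.00107 and 0.00179. The summed level of the 19 listed genes was 10249 to 11490 CPM in the APAP Cxcr4+ libraries, against 32378 CPM in control cells. C1qa, C1qb and C1qc made up most of this sum in every library. Fcna, also on the Kupffer cell list, stood at 399.1 to 692.3 CPM in the APAP Cxcr4+ libraries, against 2967 CPM in control cells. Kupffer cell markers fell beside the listed genes, and the part of those markers in these values was not tested.

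Engulfment signalling genes went both ways, with 9 of 26 higher and 6 lower (median 0.04). The exchange factors Vav3, Trio and Dock5 rose by 1.91 (SE 0.15), 1.32 (SE 0.10) and 0.91 (SE 0.10), and the GTPase Rhoa, which opposes engulfment, fell by 0.86 (SE 0.09), with adjusted p between 0.00107 and 0.00189. Without the second APAP library 6 rose and 3 fell. After the correction for exon length 1 rose and 8 fell, and with the longest coding transcript 2 rose and 5 fell; the medians were then -0.13 and -0.10. With the exon length correction Trio and Dock5 stood at 0.24 and 0.19 (adjusted p = 0.0954 and 0.159) and Vav3 at 1.59.

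For phagosome maturation and digestion of the cargo, 7 of 31 genes rose and 6 fell (median -0.09). The cholesterol exporter Abca1, induced when macrophages digest dead cells, stood at 1301, 1292 and 1320 CPM in the APAP Cxcr4+ libraries, against 456.6 CPM in control cells, a log2 rise of 1.51 (SE 0.11) that was 0.88 after the correction for exon length. The lysosomal nucleoside transporter Slc29a3 and the sugar-phosphate transporter Slc37a2 rose by 1.12 (SE 0.10) and 1.01 (SE 0.10), and the oxidase subunit Cyba fell by 1.03 (SE 0.11). These 4 had adjusted p between 0.00107 and 0.00181. With library totals alone 11 rose and 6 fell (median 0.12), and after the correction for exon length 3 rose and 14 fell.

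Among the factors that are known to raise uptake genes, 3 of 18 rose and 5 fell (median -0.18). The liver X receptor alpha gene Nr1h3, known to induce Mertk, is also on the Kupffer cell list. It stood at 257.7, 331.3 and 385.7 CPM in the APAP Cxcr4+ libraries, against 818.4 CPM in control cells. This was a log2 fall of 1.33 (SE 0.20, adjusted p = 0.00493 by edgeR), and the part of Kupffer cell levels in it was not tested. Klf2 fell by 1.83 (SE 0.16) and the cytokine Il10 by 1.15 (SE 0.26), and the lipid-sensing receptor Pparg rose by 1.23 (SE 0.17). Their adjusted p were 0.00127, 0.0166 and 0.0036. The count that fell was 3 with library totals, where the median was 0.03, or with DESeq2 size factors. Without the second APAP library 1 rose and 2 fell, without the third 2 rose and 3 fell, and after the correction for exon length 1 rose and 9 fell.

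Of 19 tested genes that process TAM receptors and ligands or act downstream of them, 7 rose and 4 fell (median 0.21). The metalloprotease Adam9 rose by 0.55 (SE 0.09) and the ubiquitin ligase Cblb, a negative regulator of TAM receptor signalling, by 1.03 (SE 0.13); after the correction for exon length Cblb stood at 0.39 and was not called (adjusted p = 0.0556). Vkorc1, which recycles the vitamin K needed to carboxylate Gas6 and protein S, fell by 1.03 (SE 0.19). Adjusted p of these 3 were between 0.0029 and 0.00914. The sheddase of Mertk, Adam17, stood at 270.7 to 274.9 CPM in the APAP Cxcr4+ libraries, against 236.4 CPM in control cells, and did not pass (adjusted p = 0.101). Without the second APAP library 2 rose and 2 fell, with library totals 9 rose and 2 fell, and after the corrections for length 3 or 4 rose and 4 fell, with a median of -0.03 for exon length.

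**Figure D5:**
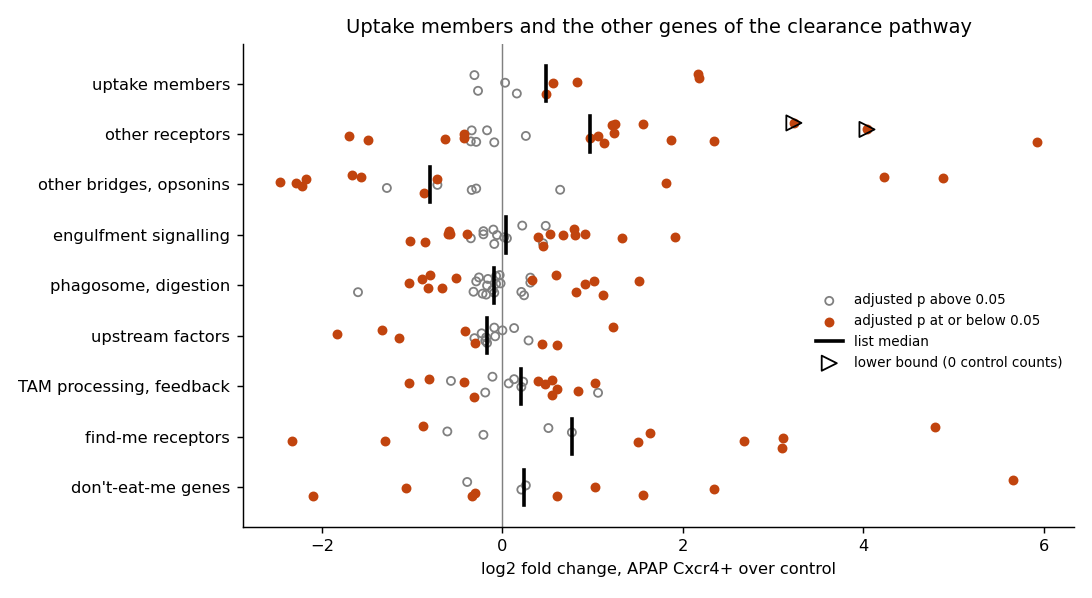
Log2 fold change of APAP Cxcr4+ over control (horizontal axis) for the tested members and the tested genes of the 8 other lists (rows); filled points passed the test, open points did not, black bars are list medians, and triangles mark genes with 0 control counts drawn at their lower bound. The other receptors have a median of 0.97, which is 0.09 with the filter of 5 CPM, and the other bridges and opsonins of -0.80; each list holds genes on both sides of 0.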

How the data were processed

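Messenger RNA was sequenced from flow-sorted liver macrophages, 3 libraries of Cxcr4+ cells after APAP and 1 control. The authors deposited raw read counts for each Ensembl gene ID. HISAT2, Subread and the build mm39 are named in the submitters' processing notes; for versions, gene annotation and strandedness of counting, nothing is given in the sources used here. Column names of the APAP group hold no replicate number, so first, second and so on follow column order.

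Symbols were found for 28926 of 29247 IDs (Slc66a1 as Pqlc2), and exon lengths came from GENCODE M21 on GRCm38, another build. edgeR 4.0.16 (R 4.3.3) tested the 18715 genes that passed filterByExpr (count 10, total 15) by quasi-likelihood F test after TMM, with Benjamini-Hochberg adjustment over all of them. SE is the log2 fold change over the root of F; intervals rest on 2 residual plus 3.795 prior degrees of freedom. Only APAP libraries give the spread, which the lone control library is taken to share. The procedure was checked on simulated data.

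Other settings were size factors and Wald test of DESeq2 1.42.0, upper-quartile scaling, other count filters (none, or 5 CPM in 1 library), limma-voom (limma 3.58.1), omission of single APAP libraries, a threshold test against a 2-fold change, and offsets from a lowess trend on exon length. A trend on the longest coding transcript and plain library totals were added after seeing the data. Members and lists were chosen with earlier results of these data known. The genes named are the members, up to 4 per pathway list by smallest p-value and the first 3 markers of a cell type, some of which are not reported here; Stab2, Timd4 as a receptor, Havcr1, Olr1, Adam17 and Nt5dc2 were named after their values were seen.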

Additional observations from a re-analysis of the deposited data

How the results depend on the processing

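Over all genes, 8295 were called, 5001 to 9380 without single APAP libraries and 1379 against a 2-fold change. Of the members 5 were called, 3 to 6 without single APAP libraries and 2 (Stab1 and Mfge8) against a 2-fold change; of the pathway genes 93 were called, 65 to 108 without single APAP libraries and 28 against a 2-fold change. The correction for exon length turned Tyro3 to -0.18, Elmo1 to -0.72 and Dock1 to -0.088, and that by the longest coding transcript turned them to -0.10, -0.38 and -0.083; Tyro3 ran from -0.087 to 0.40 without single APAP libraries. The cause of these changes was not tested. Of calls over all genes, 57.4% were higher, against 46.4% after the correction for exon length and 72.2% with library totals, which moved the median log2 fold change of all genes from 0.08 to 0.29. Stab1 and Mfge8 kept their direction and call under all 13 alternatives, and Gas6 under all but the test against a 2-fold change. No paired analysis was possible because there is 1 control library and the labels link no library of one group to the other. The single control library, Tyro3 and Adgrb1 at few counts, and small changes such as those of Mertk and Dock1 are the main limits of depth and design.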

Other observations

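Receptors for the find-me signals that dying cells release went both ways. Of 13 tested genes 6 rose and 3 fell (median log2 fold change 0.77, and 0.16 over the 10 genes left by a filter of 5 CPM), beside 25.4% and 18.9% of all genes tested. The fractalkine receptor Cx3cr1, also a monocyte marker, stood at 196.8, 286.8 and 226.1 CPM in the APAP Cxcr4+ libraries, against 8.57 CPM in control cells; its log2 fold change was 4.79 (SE 0.29). The lysophospholipid-responsive receptor Gpr132 rose by 2.68 (SE 0.21) and the sphingosine 1-phosphate receptor S1pr1 by 1.5 (SE 0.17), while Fpr2, which senses formyl peptides, fell by 2.33 (SE 0.13). Adjusted p by edgeR ran from 0.000841 to 0.00208 for these 4. Of 10 recruited monocyte markers, Cx3cr1 among them, 8 rose with these genes, and their part was not tested.

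Among 12 genes of don't-eat-me signalling, 5 rose and 4 fell. Their median was 0.23, and turned to -0.20 and -0.19 after the corrections for exon length and by the longest coding transcript. Siglecg, an inhibitory sialic acid receptor known mainly from B cells, stood at 13.3, 19.1 and 15.1 CPM in the APAP Cxcr4+ libraries, against 0.311 CPM in control cells, and its mouse ligand gene Cd24a at 20.3, 23.5 and 17.7 CPM in the APAP Cxcr4+ libraries, against 4.03 CPM in control cells. The B cell marker Cd79a stood at 28.2 to 50.1 CPM in the APAP Cxcr4+ libraries, against 3.36 CPM in control cells, and its part in these values was not tested. The inhibitory receptor Lilrb4a rose by 1.56 (SE 0.13), and Siglece, an inhibitory siglec of myeloid cells, fell by 2.10 (SE 0.24). Adjusted p by edgeR ran from 0.000933 to 0.00218. Without the second APAP library 3 rose and 2 fell, and with library totals 7 rose and 2 fell.

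Of 8 plasmacytoid dendritic cell markers, 6 were higher and 1 was lower, with sums of 304.9 to 331.6 CPM in the APAP Cxcr4+ libraries, against 382 CPM in control cells. The lower sum after APAP rests on Bst2, which other cell types also express, at 108.4 to 128.6 CPM after APAP, against 288.3 CPM in control cells. Siglech, their defining marker, had 0 control counts and was at least 273-fold higher. Of 10 tested neutrophil genes 6 rose and 0 fell (2 and 0 with limma-voom), with sums of 214.4 to 395.4 CPM in the APAP Cxcr4+ libraries, against 156.5 CPM in control cells. Of 6 tested cholangiocyte genes 4 rose (0 with limma-voom and 1 without the second APAP library). Krt19 stood at 0.239 to 0.428 CPM after APAP, against 0.489 CPM in control cells, and was not called. Epcam stood at 0.477 to 0.875 CPM after APAP, against 0.178 CPM in control cells, and Krt7 at 0.955 to 1.45 CPM after APAP, against 0.489 CPM in control cells, both called higher.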
